A study of Rattus norvegicus with 4 samples.

Results

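The potassium channel genes are the 92 genes of the deposited table whose symbol starts with Kcn, out of 32623 genes in all. They were measured in nuclei isolated from rat heart (strain Sprague Dawley, infarct zone) by single-nucleus RNA sequencing, which counts the RNA molecules of each nucleus through unique molecular identifiers (UMIs). There were 4 samples of 1 library each. One was a sham-operated control, and the other 3 followed ligation of the left anterior descending coronary artery and carry the times 1, 6 and 24 h. The titles call these 3 samples infarcts, whereas their treatment labels add reperfusion, so the labels leave unclear from which event the hours run, and neither age nor the number of pooled animals is given. All nuclei are in 1 matrix, and the barcode suffixes 1 to 4 that separate the libraries are tied to no sample by any label or header. Libraries 1 to 4 are therefore treated as 4 unlabelled samples: classes of nuclei were compared inside each library, no sample group was compared with another, and no test between conditions was possible.

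Potassium channels let potassium leave the cell and so end the action potential and hold the resting voltage. In heart muscle, Kv4 channels carry the early transient outward current, Kv7.1 and Erg channels the late repolarising currents, inward rectifiers the resting conductance, and tandem-pore channels a background leak. A functional channel joins pore-forming subunits with accessory subunits, and the same gene family serves contractile mural cells, endothelium, nerve and immune cells. By role, the 92 members comprised 28 voltage-gated pore subunits, 10 voltage-gated subunits that are silent on their own, 15 inward rectifiers, 14 tandem-pore channels, 8 calcium- or sodium-activated channels and 17 accessory or regulatory proteins. Kcnd2, which encodes a Kv4 pore subunit of rodent ventricle, was not analysed here.

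After filtering, 41728 nuclei remained, with 6181 to 14287 a library and median depths of 602 to 2215 UMIs. Clusters built without any Kcn gene were named from standard heart markers, and 29122 nuclei received a name. Library 2 stood apart: 85.1% of its nuclei fell in clusters that the markers could not name, and its median depth was the lowest. Across the libraries, 264 barcode sequences occurred more than once. Cardiomyocyte-like nuclei numbered 2709, 393, 1109 and 726 in libraries 1 to 4. Different clusters held most of them, namely cluster 1 for library 1, cluster 20 for library 2, and for libraries 3 and 4 cluster 6. Summed cardiomyocyte markers reached 41126, 29368, 13316 and 17972 UMIs per 1000000 (CPM) in these nuclei. The clusters were named from these same markers, so the levels are no separate support for the name. Markers of other classes in the same nuclei summed to 3025, 5290, 10979 and 8505 CPM, which made libraries 3 and 4 the more mixed ones.

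The 92 members held 147619 of the 108629374 UMIs, and 87 of them had at least 1 UMI. No UMI was found for Kcna1, Kcne5, Kcns2, Kcnk9 or Kcnj16. With a minimum of 100 UMIs over the named nuclei, 49 members could be compared: 16 voltage-gated, 4 silent, 9 inward rectifier, 6 tandem-pore, 5 calcium- or sodium-activated and 9 accessory genes. The other 43 had 0 to 96 UMIs, with a median of 11. Just inside this minimum were Kcne2 with 100 UMIs and Kcnmb2 and Kcnk10 with 106 each, and just outside it was Kcnj10 with 96. A member was called higher in a class when its CPM + 10 was at least 2 times that of all other named nuclei of the same library, in every library with at least 50 nuclei of that class. Intervals are exact 95% Poisson intervals and cover counting error only, since a class in a library is 1 sample. UMIs are read at the 3′ end and are not divided by gene length, so levels are compared within a gene and not between genes.

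**Figure D1:**
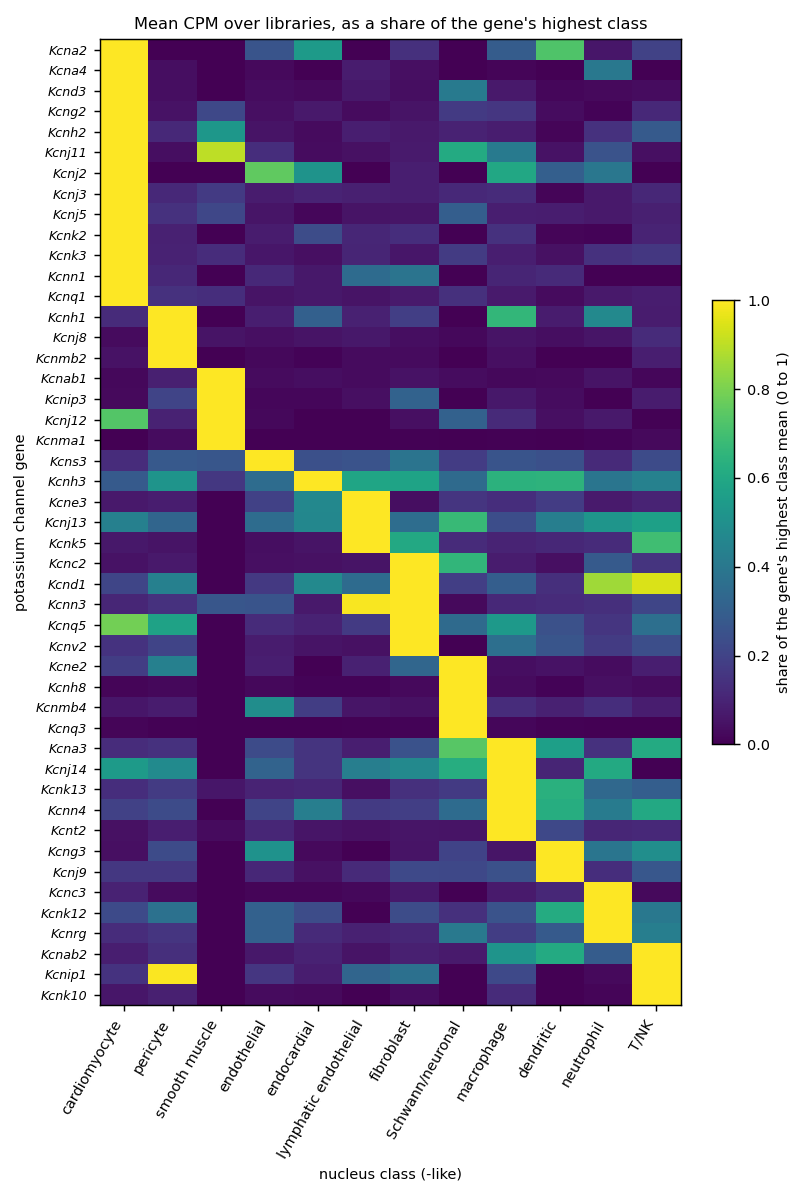
Heat map of 47 of the potassium channel genes compared (rows) by class of nuclei (columns), where colour is the mean CPM of a class over the libraries with at least 50 nuclei of it, as a share from 0 to 1 of the gene's highest class. In all, 6 of the 7 members called in cardiomyocyte-like nuclei are brightest in that column, Kcnj12 is brighter in the smooth muscle-like column, which rests on 57 nuclei and 2 Kcnj12 UMIs, Kcnj8 is brightest in the pericyte-like column and Kcnt2 in the macrophage-like one.

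Cardiomyocyte-like nuclei were the class with the most members called higher. Of the 49 members compared, 7 were higher there in all 4 libraries and 0 were lower: the voltage-gated Kcnq1 and Kcnd3, the silent subunit Kcng2, the inward rectifiers Kcnj3, Kcnj5 and Kcnj12, and the tandem-pore Kcnk3. That is 14.3% of the members, against 2.94% of all 13893 genes compared by the same rule. For the lower direction the share of all genes was 0.115%. The median log2 ratio to other nuclei was -0.12 over the members and -0.26 over all genes. No calcium- or sodium-activated and no accessory gene was among the 7. Summed over the family, cardiomyocyte-like nuclei gave 4316 CPM (4272 to 4360) in library 1, 2646 (2546 to 2747) in library 2, 1926 (1893 to 1960) in library 3 and 2382 (2338 to 2427) in library 4. The summed level was higher in them than in fibroblast-like nuclei of every library, which had 1074, 661, 623 and 778 CPM.

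Of the 7 cardiomyocyte members, 3 have a promoter entry in the RefSeq table of the rat build GRCr8, and all 3, Kcnd3, Kcng2 and Kcnj5, hold the GC box GGGCGG on either strand within 250 bases before the start. This was so of 30 of the 62 members with an entry (48.4%) and of 32.4% of the 27457 genes in the table. Kcnn3, described below, has an entry that holds no GC box and is not shown. The promoters of Kcnd3 and Kcnj5 are shown as 2 channels of these nuclei and that of Kcnj8 as the leading pericyte channel described below, with each GC box, or its reverse complement CCGCCC, in capitals. They are read 5′ to 3′ along the gene. Kcnd3 lies at chr2:195626066-195626315 on the plus strand, Kcnj5 at chr8:39011097-39011346 on the minus strand and Kcnj8 at chr4:177246549-177246798 on the minus strand.
Kcnd3: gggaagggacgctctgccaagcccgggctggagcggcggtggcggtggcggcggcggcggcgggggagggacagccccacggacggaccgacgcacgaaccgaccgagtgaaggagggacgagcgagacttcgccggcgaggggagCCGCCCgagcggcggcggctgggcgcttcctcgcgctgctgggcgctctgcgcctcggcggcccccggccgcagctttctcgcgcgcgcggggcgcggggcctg
Kcnj5: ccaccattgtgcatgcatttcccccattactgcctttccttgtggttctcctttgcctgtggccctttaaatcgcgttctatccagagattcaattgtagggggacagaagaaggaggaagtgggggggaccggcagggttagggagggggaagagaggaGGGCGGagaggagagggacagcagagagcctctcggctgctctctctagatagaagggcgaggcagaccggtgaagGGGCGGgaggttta
Kcnj8: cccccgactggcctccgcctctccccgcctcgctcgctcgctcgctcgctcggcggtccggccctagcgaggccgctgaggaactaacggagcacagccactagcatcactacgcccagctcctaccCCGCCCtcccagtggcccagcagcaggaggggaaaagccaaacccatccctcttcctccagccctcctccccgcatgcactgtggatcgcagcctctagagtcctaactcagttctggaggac
The bases G and C make up 79.6% of the Kcnd3 stretch, 57.2% of that of Kcnj5 and 66.8% of that of Kcnj8, against a median of 60.2% over the 62 members and 52.0% over all genes. The core AAGGTCA of orphan nuclear receptor sites, among them the estrogen-related receptors named in the study's title, was found on either strand in 3 of the 62 members (4.84%), Kcnc2, Kcnc4 and Kcnh1, and in 3.77% of all genes. The GATA core AGATAA was found in 8 members (12.9%), against 2759 of the 27457 genes. The MEF2 core CTANNNNTAG was found in 1 (1.61%, against 3.43%) and TATAAA in 2 (3.23%, against 13.1%). None of these 4 was in a window of the 3 cardiomyocyte members with an entry. A match describes letters in the reference and not binding in these nuclei.

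Among the voltage-gated channels, Kcnq1 encodes Kv7.1, the pore of the slow delayed rectifier. It stood at 1859 CPM (1830 to 1888) in library 1, 1235 (1167 to 1305) in library 2, 787 (766 to 809) in library 3 and 1119 (1088 to 1149) in library 4 of the cardiomyocyte-like nuclei. Other named nuclei had 141, 92.9, 51.5 and 66.1 CPM, which made the cardiomyocyte-like level 13.1, 13.3, 15.3 and 16.9 times higher. The ratio was close to the same in every library although the level itself was not. Of the cardiomyocyte-like nuclei, 93.3, 78.9, 88.0 and 90.9% carried a Kcnq1 UMI. Endothelial-like nuclei of libraries 1, 3 and 4 showed one in 14.7, 6.37 and 10.3%. Median depths were 2597, 1978, 4272 and 5082.5 UMIs in cardiomyocyte-like and 1041, 1784.5 and 2278 in endothelial-like nuclei. Free RNA was estimated at 36.9, 49.4, 65.8 and 58.7% of the UMIs of cardiomyocyte-like and 34.44, 70.69 and 58.14% of those of endothelial-like nuclei. This estimate fell to 42.8 and 34.0% in cardiomyocyte-like nuclei of libraries 3 and 4 without the mixed sub-clusters described below. It therefore does not measure free RNA alone. Whether the Kcnq1 UMIs of endothelial-like nuclei are free RNA or their own was not tested. Once the cardiomyocyte-like nuclei with at least 1000 UMIs were thinned to that depth, and the others left out, the shares were 80.6, 63.9, 58.1 and 64.7%.

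Kcnd3, which encodes the transient outward pore Kv4.3, was at 628 CPM (611 to 645), 394 (356 to 434), 139 (130 to 148) and 176 (165 to 189) in libraries 1 to 4. Other named nuclei had 34.3, 20.4, 4.00 and 3.09 CPM, so the ratios were 18.3, 19.3, 34.6 and 57.0. Libraries 3 and 4 were lower than 1 and 2 both inside and outside the class, and in each library the class lay above the other nuclei. A Kcnd3 UMI was present in 71.1, 44.8, 42.9 and 50.3% of cardiomyocyte-like nuclei. Among those with at least 1000 UMIs, thinned to that depth, the shares were 42.1, 26.2, 15.8 and 16.3%. In fibroblast-like nuclei the unthinned shares were 3.62, 3.24, 0.974 and 0.703%.

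The silent subunit Kcng2, which alters other voltage-gated channels rather than forming its own, followed at 356 CPM (343 to 369), 188 (162 to 217), 120 (112 to 129) and 170 (158 to 182). That was 17.2, 14.2, 11.5 and 22.7 times the level of the other named nuclei. Kcnh2, the Erg pore of the rapid delayed rectifier, stood at 62.6 CPM (57.4 to 68.2), 29.5 (19.9 to 42.2), 7.65 (5.70 to 10.1) and 13.3 (10.2 to 17.0), against 4.02, 4.91, 0.743 and 0.807 elsewhere. Kcna4, a Kv1.4 transient outward pore, gave 12.9, 11.8, 4.65 and 10.7 CPM. Both were above the other nuclei but missed the 2-fold rule, which adds 10 CPM to each side, and both met it with 1 CPM added or once free RNA was subtracted. Kcna5, which encodes Kv1.5, had 0 UMIs in this class in each of the 4 libraries, with upper Poisson bounds of 0.437, 3.63, 0.554 and 0.789 CPM.

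Accessory subunits of these currents were sparse in the same nuclei. Kcnip2, the calcium-binding partner of Kv4 pores, had 35, 1, 3 and 6 UMIs in libraries 1 to 4, or 4.15, 0.985, 0.45 and 1.28 CPM. Kcne1, the single-span partner of Kv7.1, had 3, 0, 3 and 2 UMIs. Neither reached 100 UMIs over all named nuclei, where they had 58 and 13. The data thus hold many UMIs of the pores Kcnq1 and Kcnd3 and few of these partners, but 3′ counts of nuclear RNA do not give the proportion of one gene's transcripts to another's.

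The inward rectifiers of the acetylcholine-gated channel were both cardiomyocyte members. Kcnj3, its Kir3.1 subunit, stood at 781 CPM (762 to 800), 221 (193 to 251), 168 (158 to 178) and 247 (233 to 262), which was 9.23, 7.59, 42.6 and 57.5 times other nuclei. Kcnj5, the Kir3.4 subunit, stood at 85.3 CPM (79.1 to 91.7), 60.1 (45.9 to 77.1), 56.3 (50.7 to 62.3) and 77.2 (69.4 to 85.6), or 13.7, 8.84, 19.4 and 19.8 times. The pair differed between libraries, since Kcnj3 in library 1 was far above the other 3 whereas the interval of Kcnj5 in library 1 overlapped that in library 4. Of the resting-current subunits, Kcnj12 (Kir2.2) was at 33.3 CPM (29.5 to 37.5), 21.7 (13.6 to 32.8), 12 (9.52 to 14.9) and 20.5 (16.6 to 25.1), 18.5, 11.5, 18.6 and 13.9 times other nuclei. Kcnj2 (Kir2.1) had only 17, 3, 19 and 12 UMIs in them, or 2.02, 2.95, 2.85 and 2.57 CPM.

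The tandem-pore channel Kcnk3 (Task1) stood at 198 CPM (188 to 208), 101 (82.8 to 123), 69.0 (62.9 to 75.6) and 100 (91.2 to 110), and its ratios to other nuclei were 28.0, 7.26, 10.4 and 10.9. The stretch-sensitive Kcnk2 (Trek1) gave 69.7 CPM (64.2 to 75.6), 23.6 (15.1 to 35.2), 8.70 (6.61 to 11.3) and 20.1 (16.2 to 24.6) against 4.30, 5.66, 1.91 and 1.75, and like Kcnh2 it missed the rule with 10 CPM added. Among calcium-activated genes, the small-conductance channel Kcnn2 had 40, 2, 7 and 17 UMIs, and the accessory BK subunit Kcnmb1 had 0, 0, 0 and 1.

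**Figure D2:**
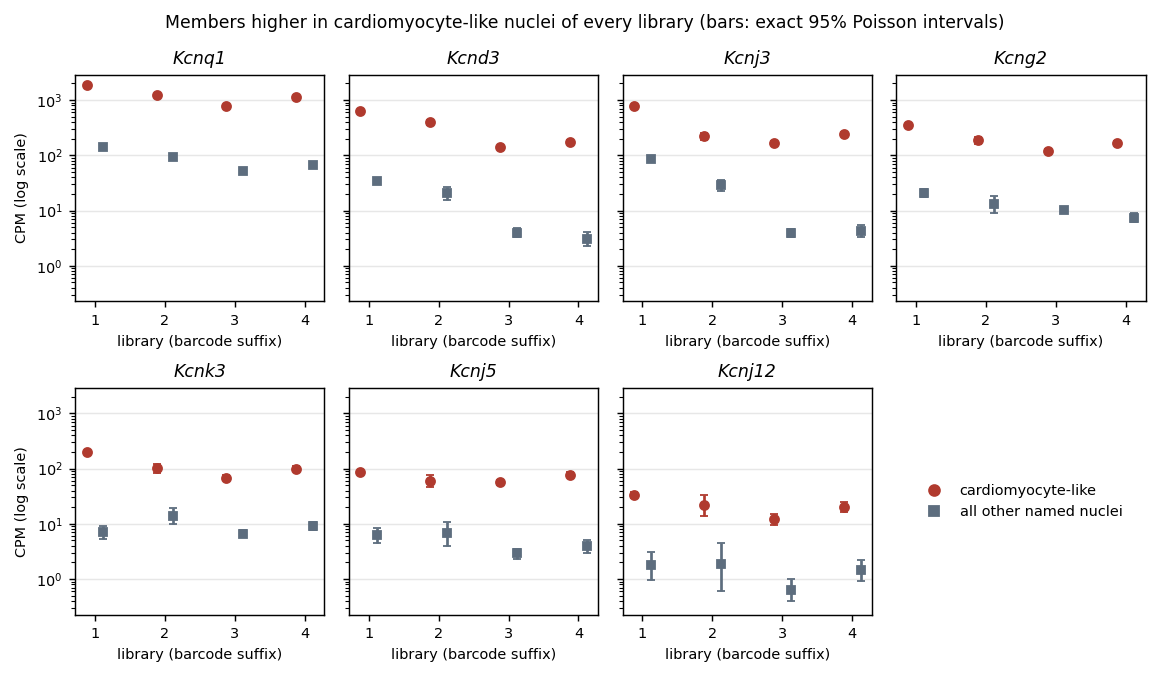
CPM of the members called in cardiomyocyte-like nuclei (red circles, with exact 95% Poisson bars) and in all other named nuclei of the same library (grey squares), on a log axis, for libraries 1 to 4. The circles lie above the squares in every library, and Kcnd3 runs from 628 CPM in library 1 to 139 in library 3.

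The ATP-sensitive channels, octamers of an inward rectifier and a sulfonylurea receptor, divided by class. Kcnj11 (Kir6.2), the pore of the cardiac form, was at 24.0 CPM (20.8 to 27.5), 21.7 (13.6 to 32.8), 9.91 (7.66 to 12.6) and 11.1 (8.30 to 14.6) in cardiomyocyte-like nuclei and at 1.94, 2.27, 1.58 and 1.95 in other nuclei. Its 12.3-, 9.56-, 6.26- and 5.70-fold ratios missed the rule with 10 CPM added. In pericyte-like nuclei it had 0, 0, 2 and 0 UMIs. Kcnj8 (Kir6.1), the vascular pore, showed the reverse order, with 2.73, 9.85, 14.7 and 7.05 CPM in cardiomyocyte-like and 494 (434 to 560), 139 (95.4 to 195), 279 (244 to 317) and 204 (172 to 241) in pericyte-like nuclei. Pericyte-like levels were 74.8, 8.33, 23.5 and 19.7 times those of all other named nuclei. A Kcnj8 UMI was found in 32.8, 14.1, 40.4 and 32.5% of pericyte-like nuclei, and in 1.61, 1.96 and 2.33% of endothelial-like nuclei of libraries 1, 3 and 4, which serve as a comparison. Free RNA was estimated at 36.55, 73.86, 86.15 and 84.05% of the UMIs of pericyte-like nuclei, whose median depths were 778.5, 1095, 1674 and 1568.5 UMIs. Only 161, 90, 353 and 224 pericyte-like nuclei reached 1000 UMIs. In these, thinned to that depth, the shares were 30.4, 13.3, 24.9 and 22.8%.

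The receptor genes, which are no members, lie beside the pore genes on the chromosome. In GRCr8, Abcc9 (Sur2) lies next to Kcnj8 and Abcc8 (Sur1) next to Kcnj11, with 0 annotated genes between them in each case. Abcc9 stood at 7331, 2418, 2296 and 2328 CPM in pericyte-like nuclei and at 982, 734, 339 and 424 in cardiomyocyte-like ones, where nuclei outside the cardiomyocyte-like class had 734, 432, 114 and 175. Unlike Kcnj8, Abcc9 was therefore also well represented in cardiomyocyte-like nuclei. Abcc8 stood at 136, 85.7, 35.6 and 49.6 CPM in cardiomyocyte-like nuclei against 9.71, 7.17, 2.42 and 2.62 in other nuclei. Of 30 listed partner genes, 24 had 100 UMIs, and 7 of these were higher in cardiomyocyte-like nuclei by the same rule (2.94% of all genes) and 0 lower (0.115%), among them Abcc8, the muscarinic receptor Chrm2, the G-protein regulator Rgs6, the anchor Ank2, Fhl2 and the transcription factor Tbx5. In pericyte-like nuclei 2 were higher (0.907% of all genes), Abcc9 and Rgs4, and 1 was lower (0.684%). In endothelial-like nuclei 1 was higher (2.84%), Mef2c, and 4 were lower (2.92%). In fibroblast-like nuclei 0 were higher (1.56%) and 2 lower (1.76%), and in macrophage-like nuclei 0 were higher (1.65%) and 3 lower (1.09%). Chrm2, which drives the channel that Kcnj3 and Kcnj5 form, was at 22.1, 30.5, 21.9 and 20.1 CPM in cardiomyocyte-like nuclei, nearly level across libraries.

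Pericyte-like nuclei held 2 called members, of which Kcnj8 is described here (4.08% of members, against 0.907% of all genes), and 3 lower ones (6.12%, against 0.684%). The members' median log2 ratio was -0.21 and that of all genes -0.04. When mural nuclei were clustered on their own, 119 carried smooth muscle markers, of which 57 were in library 1 and too few in the others for a value. In these 57 nuclei the accessory subunit Kcnab1 stood at 1392 CPM (1124 to 1705, 93 UMIs), against 98.7 (73.1 to 131) in pericyte-like nuclei of the same library. The BK pore Kcnma1, the calcium-activated brake on arterial tone, stood at 554 CPM (390 to 763, 37 UMIs). Kcnj8 had 1 UMI there, so within this library the ATP-sensitive pore was counted mainly in pericyte-like and the BK pore in smooth muscle-like nuclei. The remaining pericyte-like class was mixed. Against the other mural sub-clusters, some of its sub-clusters were highest in cardiomyocyte, lymphatic endothelial, fibroblast, endothelial or macrophage markers. The one highest in cardiomyocyte markers held 380 of the 542 pericyte-like nuclei of library 1. The one highest in lymphatic endothelial markers held 143 of the 156 of library 2. Pericyte markers summed to 6076, 2065, 3640 and 3135 CPM beside 1165, 1914, 4304 and 3052 CPM of fibroblast markers. The part of these sub-clusters in the member levels was not tested.

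Endothelial-like nuclei could be read in libraries 1, 3 and 4, where 3 members were called, Kcns3 and Kcnmb4 among them (6.12%, against 2.84% of all genes) and 5 were lower (10.2%, against 2.92%), with median log2 ratios of -0.33 for members and -0.04 for all genes. Kcns3, a silent subunit that modifies other voltage-gated channels, was at 43.7 (36.5 to 52.0), 57.7 (50.8 to 65.3) and 65.6 (59.1 to 72.6) CPM, 4.88, 5.35 and 3.62 times. Kcnmb4, a BK accessory subunit, was at 24.6 (19.2 to 31.0), 23.6 (19.3 to 28.7) and 31.2 (26.8 to 36.1) CPM, 14.2, 6.67 and 3.24 times. The silent subunits Kcns3 and Kcng2 were thus called in different classes, Kcng2 in cardiomyocyte-like nuclei.

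The small-conductance calcium-activated channel Kcnn3 (SK3) was the only member called in fibroblast-like nuclei of all 4 libraries (2.04%, against 1.56% of all genes, a share near the background), and 6 members were lower (12.2%, against 1.76%). Median log2 ratios were -0.18 for members and 0.07 for all genes. Kcnn3 was at 279 CPM (260 to 298), 68.4 (56.3 to 82.2), 41.1 (37.2 to 45.3) and 57.2 (48.7 to 66.6), which was 11.9, 3.82, 3.78 and 3.66 times other nuclei. It was also the 1 member called in lymphatic endothelial-like nuclei (2.04%, against 1.57%), at 200, 65.3 and 65.1 CPM in libraries 1, 3 and 4. The fibroblast-like class rested on different clusters in the libraries, cluster 0 for library 1, cluster 21 for library 2, and for libraries 3 and 4 clusters 11 and 12. Clusters 11 and 12 could be compared inside the same library. Cluster 11, led by C1qtnf7, Scara5 and C7, had Kcnn3 at 113 CPM in both libraries, whereas cluster 12, led by Adam12, Bnc2 and Hmga2, had 27.1 and 26.4. The Kv3 pore Kcnc2 went the same way, with 29.9 and 38.0 CPM in cluster 11 and 2.19 and 5.38 in cluster 12. Kcnq5, a Kv7 pore, went the other way, with 13.1 and 15.4 CPM in cluster 11 and 55.2 and 67.3 in cluster 12. These 3 genes did not form the clusters, but the pair of clusters was singled out after its values were seen.

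Macrophage-like nuclei had 4 called members (8.16%, against 1.65% of all genes) and 2 lower ones (4.08%, against 1.09%), with median log2 ratios of -0.14 and -0.01. Kcnn4, the intermediate-conductance calcium-activated channel of immune cells, was at 126 CPM (82.0 to 184), 307 (254 to 368), 316 (305 to 327) and 203 (188 to 220). Kcnt2, a sodium-activated channel, was at 1560 (1394 to 1740), 209 (165 to 260), 179 (171 to 188) and 112 (101 to 124) CPM. The tandem-pore Kcnk13 was at 324 (251 to 411), 206 (163 to 258), 311 (300 to 322) and 156 (143 to 171) CPM. The accessory Kcnab2 was at 77.3 (44.2 to 125), 76.7 (51.4 to 110), 108 (101 to 114) and 62.8 (54.3 to 72.2) CPM. Kcnt2 was lowest in library 4 and Kcnn4 in library 1, so the 4 genes did not share an order over the libraries. The class was also unevenly mixed, with macrophage markers at 6650, 3095, 6184 and 3245 CPM and fibroblast markers at 468, 1780, 4026 and 4280 CPM in libraries 1 to 4. The part of this mixing in the member levels was not tested. Ratios to other nuclei ran from 3.21 for Kcnab2 in library 3 to 46.2 for Kcnk13 in library 1. In GRCr8, Kcnab2 overlaps Nphp4, and whether counting used the strand is not given in the sources used here, so reads of that pair cannot be told apart.

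The macrophage-like clusters also differed. In libraries 3 and 4, cluster 18, led by Stab1, F13a1 and Cd163, had Kcnt2 at 389 and 127 CPM, against 105 and 70.3 in cluster 23, led by Tbxas1, Dgki and Mertk. Kcnn4 was at 165 and 93.2 CPM in cluster 18 and at 369 and 493 in cluster 23. Kcnk13 was at 220 and 87.0 CPM in cluster 18 and at 343 and 337 in cluster 23. Median depth was 4214.5 UMIs in cluster 18 and 1570 in cluster 23. The part of depth and of mixed nuclei in these differences was not tested. The library 1 and library 2 macrophage-like nuclei were nearly all in cluster 2, where Kcnt2 reached 1606 and 205 CPM and whose leading genes Cd163, Stab1 and F13a1 are also those of cluster 18. When nuclei with at least 1000 UMIs were clustered and named anew, 17 and 6 nuclei of libraries 1 and 2 were named macrophage-like, although 69 and 165 of the nuclei so named here reach that depth. The class could then be read only in libraries 3 and 4.

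Nerve-associated and lymphoid nuclei held few members. Schwann- or neuron-like nuclei of libraries 1, 3 and 4 had 2 called members (4.08%, against 1.45% of all genes) and 1 lower, Kcnn3 (2.04%, against 0.669%). Kcnq3, an M-current pore, was at 555 CPM (431 to 704), 221 (150 to 314) and 166 (108 to 243), whereas other nuclei had 0.966, 1.41 and 1.86. Kcnh8, an Elk-type voltage-gated pore, was at 547 (424 to 695), 121 (70.6 to 194) and 147 (92.9 to 220) CPM. Both were highest in library 1, and each value rested on 17 to 68 UMIs. Kcnd3, called in cardiomyocyte-like nuclei, also stood at 318 CPM (226 to 435, 39 UMIs) in the Schwann- or neuron-like nuclei of library 1, but at 57.1 and 31.9 in libraries 3 and 4. The BK subunit Kcnmb4, called in endothelial-like nuclei, had 11, 3 and 8 UMIs there, or 89.8, 21.4 and 51.0 CPM, and the intervals are wide. T- or NK-like nuclei had 1 called member, Kcnab2 (2.04%, against 1.26%), at 241 (163 to 341), 55.5 (11.5 to 162), 162 (139 to 187) and 170 (126 to 224) CPM, with 3 UMIs behind the library 2 value, and 2 lower ones (4.08%, against 0.453%). Kcna3 (Kv1.3), known from T cells, had 1, 0, 12 and 1 UMIs in them. Dendritic-like, neutrophil-like and endocardial-like nuclei had 0 members called higher, where 2.25, 2.25 and 1.30% of all genes were. They had 4, 3 and 4 members called lower (8.16, 6.12 and 8.16%, against 2.76, 1.48 and 2.17% of all genes), and lymphatic endothelial-like nuclei had 4 (8.16%, against 2.32%). The 4 macrophage members were also counted in dendritic-like nuclei, whose reference includes macrophage-like nuclei. In libraries 3 and 4 Kcnn4 stood there at 119 and 178 CPM and Kcnt2 at 111 and 112. Kcnk13 stood at 208 and 108 CPM and Kcnab2 at 98.7 and 92.9. Members called lower included Kcnq1, Kcnd3, Kcnj3, Kcnj5, Kcng2 and Kcnk3, for which cardiomyocyte-like nuclei are part of the reference.

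**Figure D3:**
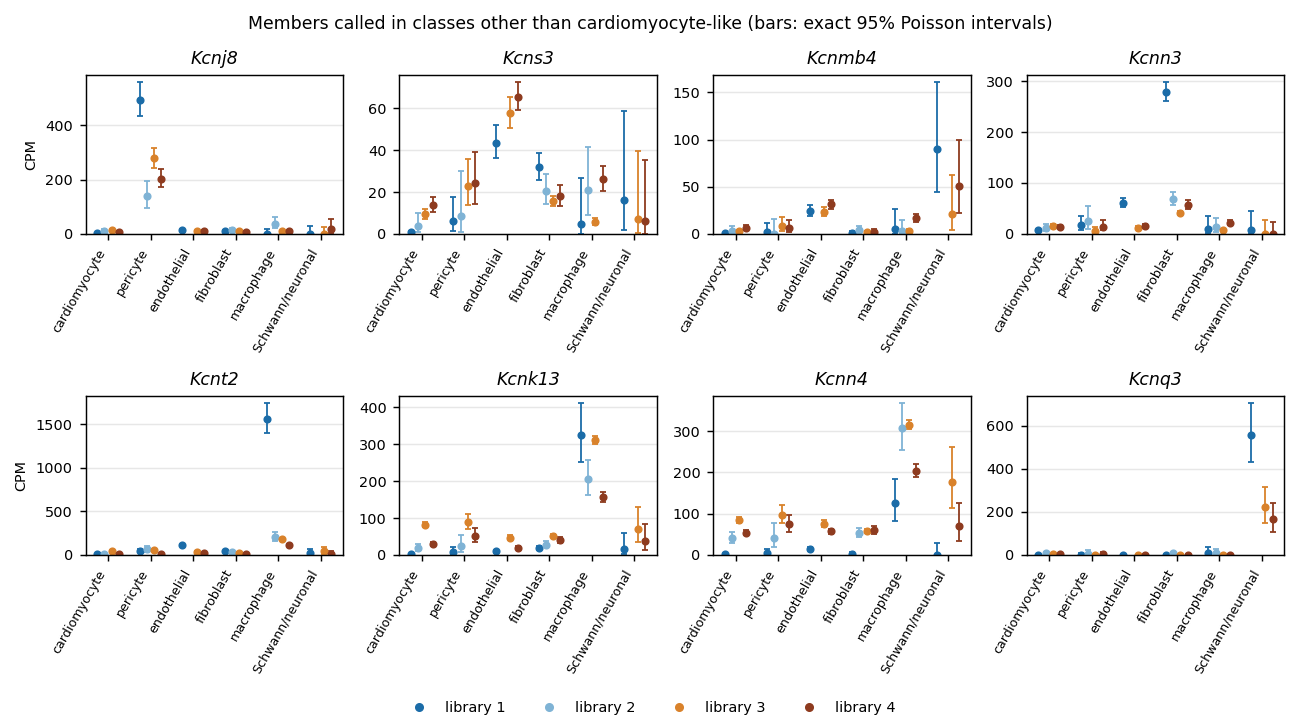
CPM (linear axes, exact 95% Poisson bars) of 8 members called in other classes, in 6 classes of nuclei, with 1 point for each library that had at least 50 nuclei of the class. Library 1 is the highest for Kcnj8 in pericyte-like nuclei (494 CPM), Kcnt2 in macrophage-like nuclei (1560 CPM) and Kcnn3 in fibroblast-like nuclei (279 CPM), but not for Kcnn4 in macrophage-like nuclei (126 CPM).

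Within cardiomyocyte-like nuclei the members differed between libraries. Of the 24 members with 100 UMIs in this class, 17 (70.8%) had a CPM + 10 in their highest library at least 2 times that in their lowest, against 41.3% of all genes, and the median log2 span was 1.34 for members and 0.87 for all genes. Of the 17, 8 were highest in library 1, 6 in library 3 and 3 in library 4, whereas over all genes library 1 was the highest for 11.8% and library 3 for 55.5%. The 8 highest in library 1 were the pore genes Kcnq1, Kcnd3, Kcnj3, Kcng2, Kcnk3, Kcnh2, Kcnk2 and Kcna2. Their spans ran from 2.34-fold for Kcnq1 to 4.45-fold for Kcnj3. The Kv1.2 pore Kcna2 had 131 UMIs in library 1 and 0, 5 and 4 in the others. Scaling by median-of-ratios size factors moved the all-gene median of these nuclei by 0.75, 0.22, 0.06 and 0.16 on the log2 scale in libraries 1 to 4. That raises library 1 against the others, so it is no check on genes highest there. With free RNA subtracted the 8 were still highest in it, with spans from 1.18-fold for Kcnq1 to 3.28-fold for Kcnk2.

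The members highest in library 3 or 4 included those called in other classes. Kcnk13 was at 1.42 CPM (0.735 to 2.49), 18.7 (11.3 to 29.2), 81.6 (74.9 to 88.8) and 29.3 (24.6 to 34.6) in cardiomyocyte-like nuclei, and Kcnn4 at 2.49 (1.54 to 3.81), 41.4 (29.8 to 55.9), 84.5 (77.7 to 91.8) and 53.9 (47.4 to 61.0). All other named nuclei had 22.6, 55.9, 148 and 56.0 CPM of Kcnk13. Kcnab2, at 0.711, 9.85, 30.5 and 11.5 CPM, had the same order. Macrophage markers moved with them, at 52.4, 525, 1973 and 746 CPM in these nuclei. With a free-RNA estimate subtracted, Kcnk13, Kcnab2, Kcnt2 and Kcns3 stood at 0 in all 4 libraries. The profile subtracted holds the classes in which these genes were called, so the 0 values are no separate check on mixing. Kcnab1, at 4.39, 8.86, 45.6 and 65.0 CPM, kept 0, 0, 31.5 and 28.2.

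To see which values rested on mixed nuclei, sub-clusters in which markers of other classes summed to over 50% of the cardiomyocyte markers were left out, a choice made after the data were seen. That removed 23, 2, 574 and 309 nuclei and brought markers of other classes to 2836, 5128, 7306 and 5111 CPM. Then 8 of 18 members (44.4%) spanned 2-fold, against 33.4% of all genes, so the gap to the background narrowed from 70.8 against 41.3%. The shares rest on different members, since Kcnk13, Kcnab2, Kcnj13 and Kcns3, which had spanned 2-fold, were no longer among those compared. In the remaining nuclei these spanned 3.08-, 1.87-, 2.87- and 1.33-fold. Kcnq1 became 1876 CPM (1847 to 1905), 1249 (1180 to 1320), 1234 (1183 to 1286) and 1486 (1431 to 1542), and no longer spanned 2-fold. Kcnd3 became 634 (617 to 651), 399 (361 to 441), 218 (197 to 240) and 229 (208 to 252) CPM, a span of 2.82-fold. Kcnj3 became 788 (769 to 808), 223 (194 to 254), 265 (242 to 289) and 348 (322 to 376) CPM, and Kcnh2 63.3 (58.0 to 68.9), 30.3 (20.4 to 43.2), 11.0 (6.71 to 17.0) and 18.7 (13 to 26.0). Kcnk2 kept a span of 3.11-fold, whereas Kcng2 and Kcnk3 no longer met the 2-fold span. The widest spans were then those of Kcnab1 (5.07-fold, highest in library 4) and Kcnn4 (4.59-fold, highest in library 2). Both were lowest in library 1. Kcnj5 became 85.7, 61.5, 85.6 and 108 CPM and was then highest in library 4.

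Members were also set against each other within the cardiomyocyte-like nuclei. Other nuclei hold some Kcnq1 and Kcnd3 as well, in proportions that differ between libraries, and the part of free RNA in these ratios was not tested. Per 1000 Kcnq1 UMIs of the cardiomyocyte-like nuclei there were 338, 319, 176 and 158 Kcnd3 UMIs, so Kcnd3 was lower against Kcnq1 in libraries 3 and 4 than in 1 and 2. For Kcnj3 the numbers were 420, 179, 213 and 221, with library 1 apart from the other 3. Kcnh2 gave 33.7, 23.9, 9.73 and 11.9 and Kcnk2 37.5, 19.1, 11.1 and 18.0. Kcnj5 had the opposite order, with 45.9, 48.6, 71.5 and 69.0. Kcng2 with 191, 152, 152 and 152, Kcnk3 with 106, 82.1, 87.7 and 89.4 and Kcnj12 with 17.9, 17.5, 15.3 and 18.3 moved little against Kcnq1. Per 1000 UMIs of the cardiomyocyte markers, Kcnd3 (15.3, 13.4, 10.4 and 9.81), Kcnj3 (19.0, 7.51, 12.6 and 13.8), Kcnh2 (1.52, 1.01, 0.575 and 0.738) and Kcnk2 (1.70, 0.805, 0.654 and 1.12) were still highest in library 1. On that scale Kcnq1, at 45.2, 42.0, 59.1 and 62.2, Kcng2, at 8.65, 6.40, 9.01 and 9.43, and Kcnk3, at 4.81, 3.45, 5.18 and 5.57, were highest in library 4, so the order of the libraries for these 3 depends on the scale. Each library is 1 sample of unknown treatment, and animal, depth, nucleus quality and time after ligation cannot be told apart here.

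**Figure D4:**
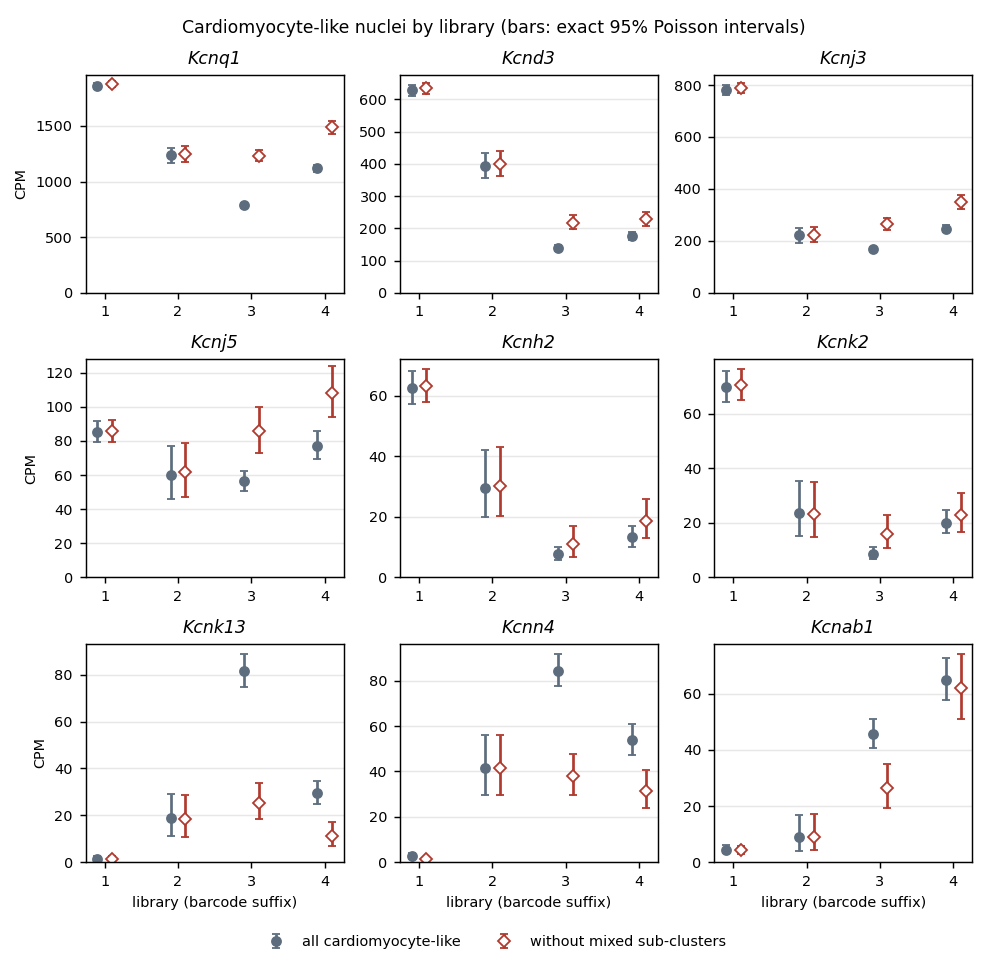
CPM of 9 members by library in all cardiomyocyte-like nuclei (grey circles) and without the mixed sub-clusters (open red diamonds), on linear axes from 0 with exact 95% Poisson bars. Kcnq1 draws level across libraries 2 and 3 without the mixed sub-clusters (1249 and 1234 CPM), while Kcnd3 stays lower in libraries 3 and 4 (218 and 229 CPM) than in libraries 1 and 2 (634 and 399 CPM).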

How the data were processed

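The deposited values are UMI counts per gene and nucleus, 108629374 in 48637 barcodes and 4 libraries, written by cellranger 5.0.1, per the file headers. The submitters' processing notes name Cell Ranger 6.1.1, Seurat and rn7 without roles, and which build the counts rest on is not given in the sources used here. Nuclei were isolated by Dounce homogenisation and libraries made with a 10x 3' kit, per the labels' protocols.

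Nuclei below 500 UMIs or 300 genes, or above 10% mitochondrial UMIs, were dropped. The highest scrublet scores were removed at 0.8% per 1000 nuclei. In scanpy 1.11.5, 2000 variable genes (all Kcn genes excluded), chosen per library and scaled to at most 10, 30 components, 15 neighbours and Leiden resolution 1 gave the clusters, without integration. Choosing variable genes per library and scaling were set after a plain clustering had mixed macrophage and neutrophil markers, without looking at Kcn values. A cluster was named when at least 3 markers were 2-fold higher and in 5% of its nuclei, with a margin of 0.5 over the next class, and such names end in "-like". Counts were summed per class in each library and scaled to the class total as CPM, with exact Poisson intervals. Free RNA was estimated from the profile of all nuclei of a library. With 1 library a group there was no test. The calling rule was checked on simulated counts.

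The members and lists were chosen with earlier results of these data known. Genes named were all called members of classes with 200 nuclei or more, the 8 widest spans in cardiomyocyte-like nuclei and a fixed list of cardiac channels; others named from counts of 5 or fewer, or from clusters, were chosen after their values were seen. Promoters and gene neighbours come from RefSeq tables of GRCr8 and were used with no count coordinates. The planned search of protein sequences was not run. Some genes that enter the counts are not reported here by name. Alternatives are given in the closing section.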

Additional observations from a re-analysis of the deposited data

How the results depend on the processing

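No paired analysis was possible because each group has 1 library and the libraries are tied to no sample. The 17 main calls of the cardiomyocyte-, fibroblast-, endothelial-, pericyte- and macrophage-like classes were kept under every alternative clustering, scaling, free-RNA and pseudocount setting run, except Kcnj12 with no doublets removed. Classes with under 50 nuclei in a library drop out of the rule there. With 1000 UMIs a nucleus the macrophage-like calls thus rested on libraries 3 and 4 and the pericyte-like ones on libraries 1, 3 and 4, and the fibroblast-like call rested on libraries 1, 3 and 4 in that setting, with no doublets removed and at resolution 0.5. The cardiomyocyte-like count of 7 became 11 with free RNA subtracted and 11 with a pseudocount of 1 CPM, both adding Kcna4, Kcnh2, Kcnj11 and Kcnk2. Subtracting free RNA raises genes above the profile of all nuclei, so calls kept or added under it are no check. The fibroblast-like count of 1 became 2 with 1000 UMIs a nucleus, with no doublets removed and at Leiden resolution 0.5, 4 with free RNA subtracted, 6 with a pseudocount of 1 CPM and 2 without library 2. The pericyte-like count of 2 became 4 at resolution 0.5, with free RNA subtracted and with a pseudocount of 1 CPM. It was 3 with 1000 UMIs a nucleus and with Kcn genes allowed in the clustering. Without mixed sub-clusters the cardiomyocyte-like count was 9, adding Kcnj11 and Kcnk2. The endothelial-like count of 3 became 4 with a pseudocount of 1 CPM, adding Kcng3. The count of 17 spanning members fell to 8 with free RNA subtracted, 8 without mixed sub-clusters and 7 without library 1. Only 18 members, not 24, could be compared without mixed sub-clusters. Shares of all genes in these settings are given only for the spans without mixed sub-clusters. A changed count is therefore no result about the members. Leaving out library 2 and the mixed sub-clusters were chosen after seeing the data. Apart from fewer libraries, the cause of these changes was not tested.

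The summed level in cardiomyocyte-like nuclei of libraries 1 to 4 was 7282, 3084, 2008 and 2667 with size factors and 5106, 4087, 3629 and 4033 with free RNA subtracted, which brings libraries 2 to 4 within a narrower range. It was 4370, 2662, 1892 and 2276 with 1000 UMIs a nucleus, 4112, 2640, 1770 and 2147 with no doublets removed, and 2472 and 2977 in libraries 3 and 4 without mixed sub-clusters. Of 21 levels of named members in their highest class, all 21 were higher with free RNA subtracted, 18 by over 1.5 times. The profile subtracted is that of all nuclei, and a gene above it rises by the subtraction itself, so this rise is no check. With 1000 UMIs a nucleus 8 of 19 moved and 1, Kcnt2, by over 1.5 times. The planned removal of clusters over 2 times the others in other classes' markers moved 0 of 21. Depth limits the low members: 43 had too few UMIs to compare, and classes under 50 nuclei in a library were not read.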

Other observations

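Kcnh3, an Elk-type voltage-gated pore, stood at 105 CPM (58.7 to 173), 92.1 (77.8 to 108) and 80.6 (65.2 to 98.5) in endocardial-like nuclei of libraries 1, 3 and 4, 5.04, 1.94 and 1.88 times other nuclei, and was not called. Kcne3, an accessory subunit, was at 4.87 CPM (1 UMI), 24.8 (12.4 to 44.3) and 75.4 (47.3 to 114) in lymphatic endothelial-like nuclei of these libraries, and only libraries 3 and 4 had more than 1 UMI. Kcnc2 in fibroblast-like nuclei was at 192 CPM (177 to 209) in library 1 and at 15.1, 6.71 and 16.5 in libraries 2 to 4, so a gene with 557 UMIs in 1 library missed the call. Kcnmb2, a BK accessory subunit, was at 50.4, 12.6, 25.3 and 12.9 CPM in pericyte-like nuclei and at 0.792, 1.75, 0.516 and 0.584 in others, on 3 to 25 UMIs a library. These 4 were chosen after their values were seen.

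The 2 unnamed clusters of library 2 also held member UMIs. Cluster 17, with 9709 nuclei at a median of 569 UMIs and S100a9 and S100a8 among its leading genes, had Kcnq1 at 247 CPM, Kcnn4 at 114, Kcnk13 at 54.7 and Kcnj8 at 31.4. Cluster 15, with 1256 nuclei and the endothelial genes Erg and Ptprb among its leading genes, had Kcnq1 at 226 CPM and Kcns3 at 29.1. For comparison, cardiomyocyte-like nuclei of that library had Kcnq1 at 1235 CPM and all other named nuclei at 92.9. Of the 49 members compared, 12 had the same highest class in all 4 libraries, 8 of them cardiomyocyte-like, 2 macrophage-like and 2 pericyte-like. Only cardiomyocyte-, fibroblast-, macrophage-, pericyte- and T- or NK-like nuclei numbered at least 50 in all 4 libraries. Other classes could therefore not enter this count, and a share over all genes is not given here.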
